A study of Homo sapiens with 12 samples.

Results

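Knockdown of NELFA with YAP1 left intact was followed in 6 of the 12 RNA-seq libraries of this series, namely the 3 siNELFA and the 3 siControl libraries, which were compared in pairs of equal replicate number. All cells were MDA-MB-231, a mesenchymal triple-negative breast cancer line. siNELFA cells received a pool of siRNAs against NELFA and siControl cells a non-targeting pool, both at 50 to 100 nM with DharmaFECT. The remaining groups were siYAP (a pool against YAP1) and siNELFA+siYAP (both pools), with 3 libraries each. RNA was collected at 72 h according to the methods of the study, while the sample labels give 48 h and 72 h. A single pool was used for each target, so an effect of losing NELFA and any other effect of the same pool cannot be told apart. In bulk RNA, fewer cells of one kind and less RNA per cell cannot be told apart either.

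NELFA is a subunit of the negative elongation factor (NELF), which also contains NELFB, NELFCD and NELFE. Together with DSIF, NELF holds RNA polymerase II shortly downstream of the transcription start site, and the kinase complex P-TEFb, which is kept inactive by 7SK RNA, releases the polymerase into the gene body. Promoter-proximal pausing of this kind is known for immediate early, cytokine and stress-response genes, which can be switched on fast, and also occurs at most active promoters. NELF has further roles at the 3′ ends of replication-dependent histone and small nuclear RNA genes.

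The 6 libraries held between 9608145 and 18803104 counts. Replicate 1 stood apart in both groups. Its counts differed from those of replicates 2 and 3 by a chi-square per degree of freedom of 77.3 to 100.9, against 16.0 (siControl) and 13.1 (siNELFA) between replicates 2 and 3. The markers of MDA-MB-231 were high in every library, with VIM between 17785 and 28082 and EGFR between 7423 and 12329 normalised counts, whereas SPARC was at 38.9 to 137 only. Normalised counts here are read counts scaled by TMM factors to one library size, and sets of 3 values are given in the order of replicates 1, 2 and 3. The 6 epithelial and luminal markers summed to 1037, 287 and 286 normalised counts in siControl and to 1250, 249 and 229 in siNELFA, of which CDH1 made up 373, 14.1 and 3.12 in siControl and 698, 12.2 and 0 in siNELFA. ESR1 and PGR had at most 6.49 normalised counts in any library, and none of the 4 markers of this list that could be tested was called. The 6 leukocyte, endothelial and fibroblast markers summed to 1976 to 2023 in siControl and to 2659 to 3069 in siNELFA. Of the 4 of them that could be tested only CD68, which lysosomes of many cell types also carry, was called (edgeR's quasi-likelihood test gave a log2 fold change of 0.63 with a standard error of 0.102 and an adjusted p of 0.00473), and PTPRC and CDH5 were at or near 0. The part of these markers in the results was not tested. The main counts are also given below without replicate 1.

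NELFA (ENSG00000185049, minus strand of chromosome 4 from 1982717 to 2041903, GRCh38) had 380, 414 and 420 normalised counts in siControl and 148, 137 and 107 in siNELFA. Every siNELFA library lay far below every siControl library. The mean went from 405 ± 22.02 to 131 ± 21.4 (SD, n = 3), which is 32.2% of siControl (log2 fold change -1.64, standard error 0.175, adjusted p = 0.000385, edgeR with a block for the replicate number). Without the block its adjusted p was 0.381. In the deposited TPM values, which are scaled for transcript length, NELFA was at 13.2, 20.2 and 14.1 in siControl and at 6.24, 5.02 and 5.08 in siNELFA. Its partner subunits were not called. NELFCD gave a log2 fold change of -0.09, NELFE of 0.04 and NELFB of 0.18. NELFB was uneven, since siControl replicate 1 had 526 and replicates 2 and 3 had 1379 and 1368, and its sign turned without replicate 1 (-0.13), as did that of NELFE without replicate 2 (-0.12). YAP1 had 4527, 4051 and 3721 normalised counts in siControl and 4340, 3733 and 3811 in siNELFA, so the groups overlapped (log2 fold change -0.04, standard error 0.090, adjusted p = 0.850 in edgeR).

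**Figure D1:**
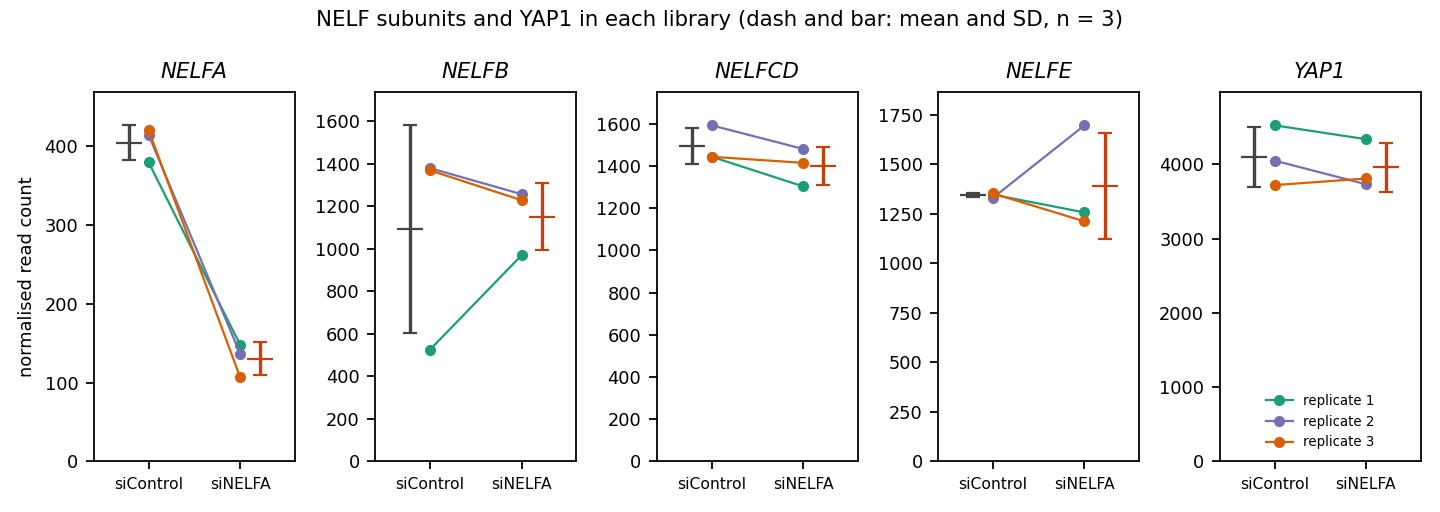
Normalised read counts (y axes, from 0) of the 4 NELF subunit genes and YAP1 in siControl and siNELFA, with lines that join libraries of one replicate number, and the mean with its SD (n = 3) beside each group. NELFA falls in each pair, from 380 to 420 down to 107 to 148, while the siControl and siNELFA ranges of the other 4 genes overlap.

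Of 17727 genes with enough counts, 924 (5.21%) passed an adjusted p of 0.05 in edgeR's quasi-likelihood test with the replicate block. 490 of them (2.76% of the tested genes) were higher in siNELFA and 434 (2.45%) were lower, with median log2 fold changes of 0.61 and -0.63. A change of at least 2-fold was seen in 58 of the higher and 48 of the lower genes. All 924 had the same direction in each of the 3 pairs, which a test on these same pairs makes likely for any called gene. Protein-coding genes made up 466 of the higher and 418 of the lower genes. Without the block 1 gene, ALDH9A1, was called (791 at an unadjusted p under 0.05, against 3587 with the block). In limma on log2(TPM + 1) with the block none was called, with 3196 at an unadjusted p under 0.05. Without replicate 1, 2835 genes were called, among them 920 of the 924, and without replicate 2 or 3 there were 629 and 643. These fits hold fewer libraries and estimate their own error, yet they gave smaller adjusted p-values for some genes. For NELFA edgeR gave 1.85e-25, 1.11e-06 and 4.37e-06 without replicate 1, 2 or 3, against 0.000385 with all 3 pairs. Counts of calls with a replicate left out are therefore not like for like with the 924. Higher genes made up 53.03% of the calls, and 65.3% of those without replicate 3. The median log2 fold change of all tested genes was 0.01.

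**Figure D2:**
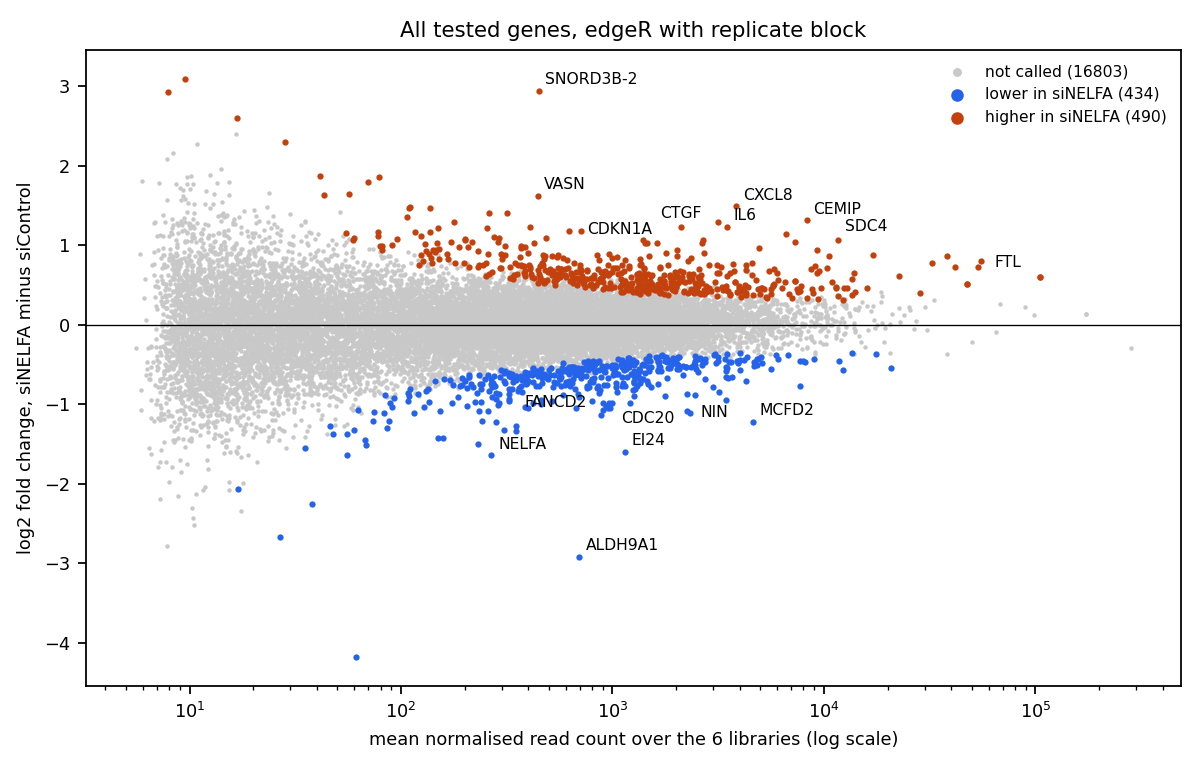
Log2 fold change of siNELFA against siControl (y axis) for all 17727 tested genes by mean normalised count over the 6 libraries (x axis, log scale), with the 490 genes called higher, the 434 called lower and those not called in separate colours. ALDH9A1 and NELFA mark the falls among well-counted genes, and abundant genes such as CXCL8, CTGF, SDC4 and FTL are on the upper side.

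The largest falls among protein-coding genes were led by ALDH9A1 and by NELFA itself. ALDH9A1 (ENSG00000143149, minus strand of chromosome 1 from 165662216 to 165698562), an aldehyde dehydrogenase that oxidises aminoaldehydes in carnitine synthesis, had 1024, 1308 and 1366 normalised counts in siControl and 138, 192 and 157 in siNELFA. That left 13.2% of the siControl level, below what remained of NELFA (log2 fold change -2.92, standard error 0.139, adjusted p = 4.39e-07 in edgeR). EI24, a membrane protein of the endoplasmic reticulum with a role in autophagy, had 1434, 1892 and 1840 in siControl and 533, 623 and 538 in siNELFA, with no overlap (-1.60, standard error 0.117, adjusted p = 2.90e-05).

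TMEM19, a multipass membrane protein, fell to 35.1% of its siControl level (log2 fold change -1.50, adjusted p = 0.000659 in edgeR). The overlapping gene RP11-293I14.2 shares reads with it in part of its span and gave -1.51, so the values of the pair are not independent. PDK4, a kinase that restrains pyruvate dehydrogenase (-1.43), and UCP2, a mitochondrial carrier (-1.33), fell as well. SELENOT, a selenoprotein of the endoplasmic reticulum, gave -1.28, IL11, a cytokine of the IL6 family, -1.22, and DPF3, a BAF chromatin remodelling subunit, -1.21. Among abundant transcripts the largest falls were those of MCFD2, a cargo receptor partner for coagulation factors, and NIN, a centrosomal protein. MCFD2 went from 5601, 6736 and 6839 to 1915, 3923 and 2683 (-1.22, standard error 0.128, adjusted p = 0.000385 in edgeR), and NIN from 3596, 3025 and 2893 to 1528, 1646 and 1243 (-1.10, standard error 0.106, adjusted p = 0.000191). Neither gene overlapped between the groups. SMC1A, a cohesin subunit (-0.95), RBPJ, the DNA-binding factor of Notch signalling (-0.78), and LMNB2, a nuclear lamin (-0.68), were further abundant genes that fell. Of the 15 largest falls, CAPN11 was not called without replicate 2 or 3, SNTB1 and DPF3 not without replicate 3, and ITGBL1 not without replicate 2. Their log2 fold changes in these fits lay between -1.54 and -1.03.

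The largest rises held cytokines, membrane proteins and matrix-related genes. VASN, a membrane protein that can bind TGF-beta, had 402, 124 and 119 normalised counts in siControl and 1274, 362 and 371 in siNELFA. Each pair rose by a similar factor although the level of replicate 1 was higher throughout, so that the groups overlapped (log2 fold change 1.62, standard error 0.142, adjusted p = 9.24e-05 in edgeR). SYT12, a synaptotagmin (1.46), PCDH1, a protocadherin (1.41), ADORA2A, an adenosine receptor (1.40), TENM1, a teneurin (1.36), and EBI3, a subunit of IL27 and IL35 (1.30), followed. C10orf54, the checkpoint ligand VISTA, rose from 352, 227 and 135 to 981, 419 and 338 (1.23), and CD14, a co-receptor for bacterial lipopolysaccharide, gave 1.21. CEMIP, a hyaluronan-degrading protein, ran from 280 to 17106 within siControl and from 1051 to 27576 within siNELFA. It rose in each pair (1.31, standard error 0.169, adjusted p = 0.00132), but the spread between replicates exceeded the change many times over.

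**Figure D3:**
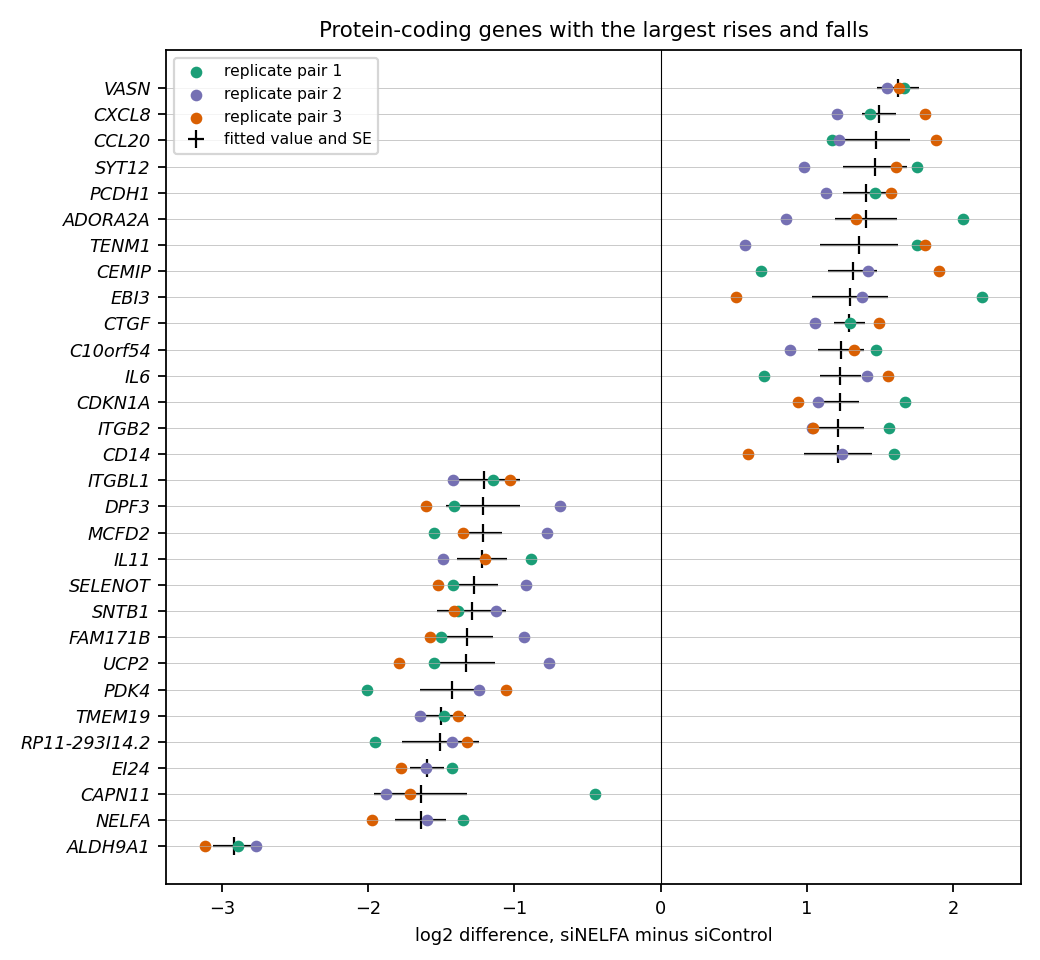
Log2 difference of siNELFA and siControl (x axis) within each replicate pair (points) and the fitted value with its standard error (bars) for the 15 protein-coding genes with the largest rises and the 15 with the largest falls among those called. Every point lies on the side of its fitted value, since one direction in all 3 pairs was a condition of the choice. The 3 points of ALDH9A1 are close together near -2.92, while those of CAPN11 and EBI3 are spread.

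To describe which functions rose and fell, the calls were counted in 50 gene lists, beside the share called over all genes (2.76% higher, 2.45% lower). The lists were drawn up from general knowledge, but with earlier results of these data known. Their shares therefore describe the lists and are not a test against all genes. The lists with the lowest medians were those of replication-dependent histones (-0.42), mitosis (-0.37), DNA replication (-0.34) and homologous recombination (-0.30). The highest medians were those of syndecans and glypicans (0.51), matrix proteases (0.45), antigen presentation (0.39), NF-kB and chemokines (0.38) and CDK inhibitors with p53-type targets (0.34). In the TPM values the median of all genes itself stood at -0.17, and 12 of the list medians of at least 0.1 in size changed sign there. With that shift taken off, only the medians of DSIF, PAF1 and super elongation factors (0.10 in counts, -0.06 in TPM) and of mitochondrial ribosomal proteins (0.02 and -0.02) lay on the other side among the 50 lists. List medians are therefore to be read against all genes.

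**Figure D4:**
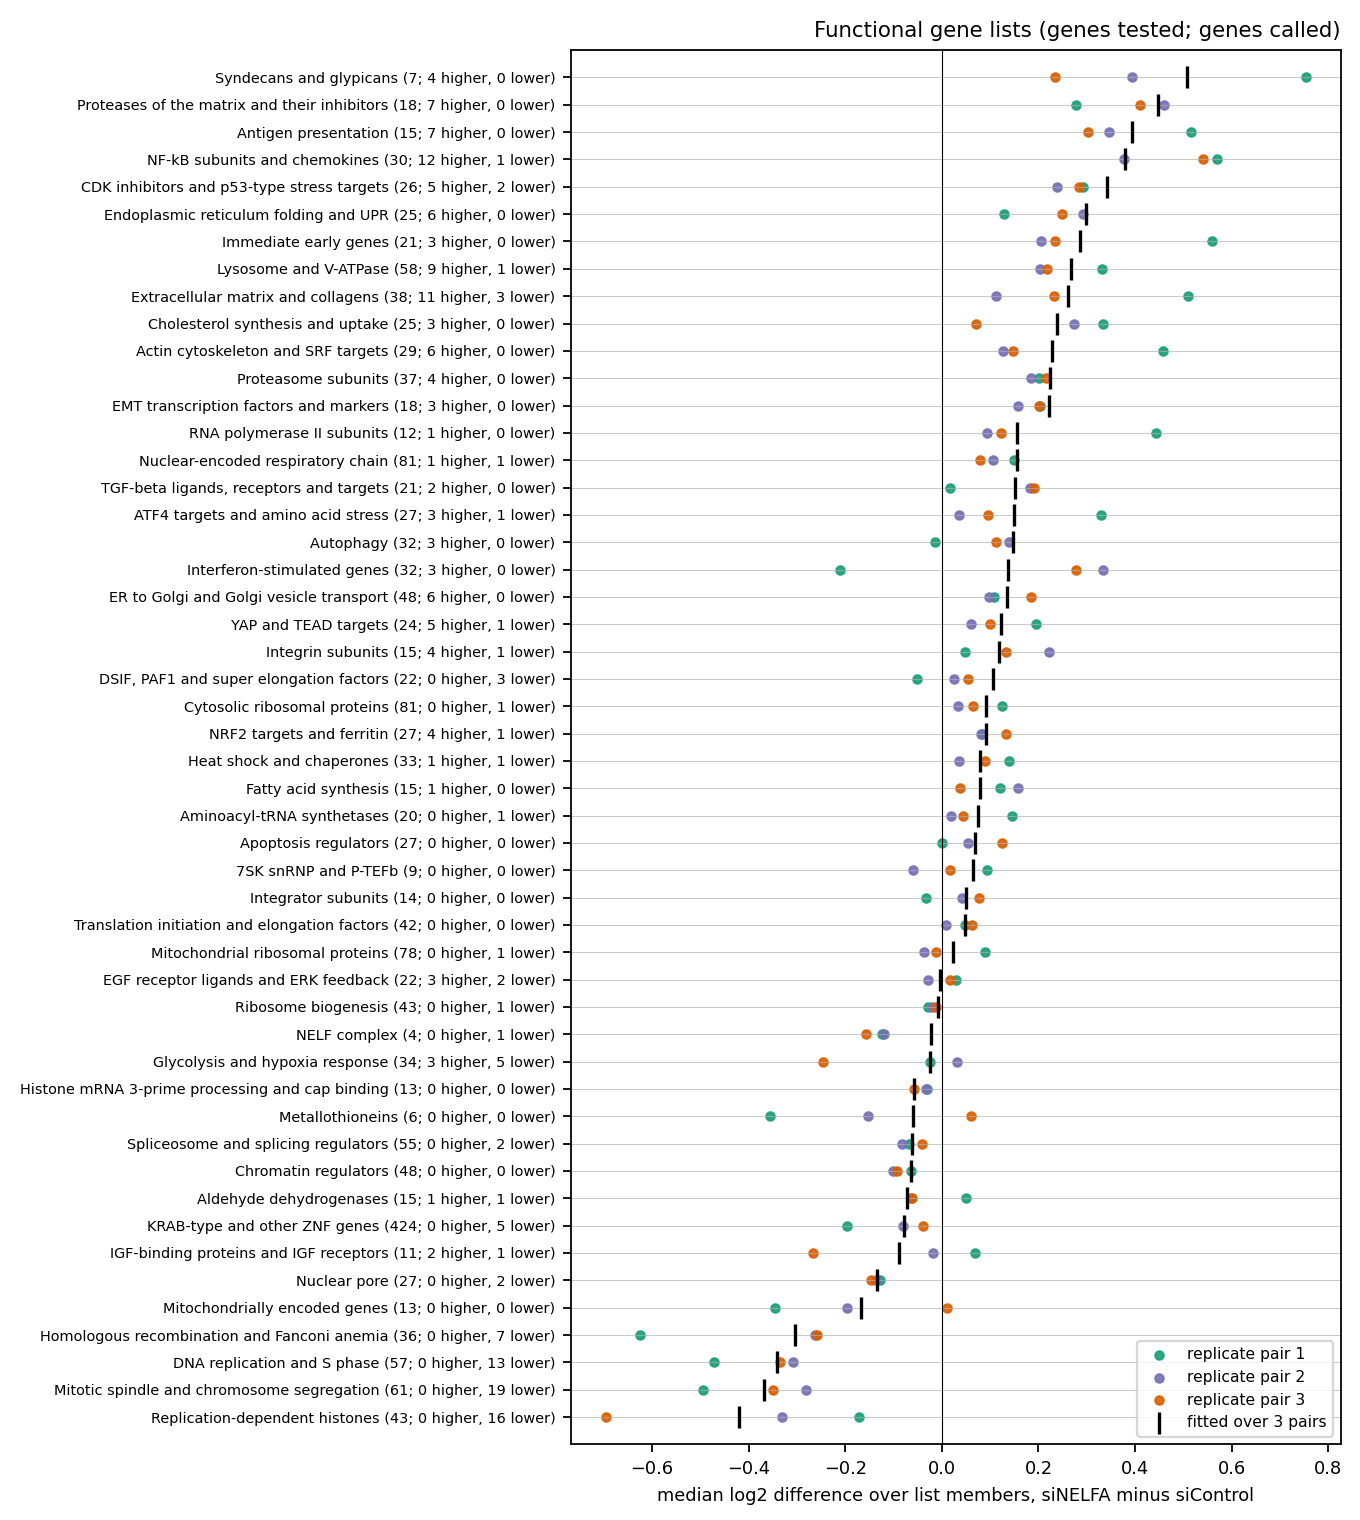
Median log2 difference of siNELFA and siControl (x axis) over the members of 50 gene lists, within each replicate pair (points) and fitted over the 3 pairs (bars). The number of tested genes and of genes called higher and lower stands beside each list. The 4 lists at the bottom, all of the cell cycle and its DNA, are below 0 in each pair, and the 6 at the top are above 0 in each pair. In TPM values, where the median of all genes is -0.17, these 10 lists keep their sign and 22 of the 50 do not.

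Genes of mitosis fell together. Of 61 spindle and segregation genes, all tested, 19 (31.1%) were called lower and none higher, and all 61 had a log2 fold change below 0, from -0.98 to -0.05. The median was -0.49, -0.28 and -0.35 in the 3 pairs. CDC20, the activator of the anaphase-promoting complex, had 597, 1701 and 1684 normalised counts in siControl and 344, 989 and 657 in siNELFA. It was lower in each pair, with overlapping groups because siControl replicate 1 was low (log2 fold change -0.98, standard error 0.136, adjusted p = 0.00217 in edgeR). BUB1B, a kinase of the spindle checkpoint, went from 1120, 1430 and 1366 to 538, 966 and 814 without overlap (-0.78, standard error 0.124, adjusted p = 0.00445). KIF11, the motor that separates spindle poles, gave -0.74, and PLK4, which starts centriole duplication, -0.76. The proliferation marker MKI67 had 10334, 17582 and 15519 in siControl and 5823, 13352 and 11039 in siNELFA (-0.56, adjusted p = 0.00758), and TOP2A, the topoisomerase that untangles replicated DNA, gave -0.46. The number called lower was 38 without replicate 1, 13 without replicate 2 and 14 without replicate 3.

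Promoters of mitotic genes commonly hold a cell cycle homology region (CHR), at which the DREAM complex is known to act. The 250 bases before the RefSeq start (GRCh38.p14) of 3 called mitotic genes are shown because each holds the CHR letters TTTGAA, in capitals in either orientation. They were picked for having a match.
CDC20 promoter, chr1:43358731-43358980, plus strand: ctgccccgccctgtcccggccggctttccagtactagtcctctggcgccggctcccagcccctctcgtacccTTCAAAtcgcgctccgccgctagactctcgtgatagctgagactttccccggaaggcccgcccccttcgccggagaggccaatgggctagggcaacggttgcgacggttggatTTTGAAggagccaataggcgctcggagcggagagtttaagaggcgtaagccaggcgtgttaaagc
BUB1B promoter, chr15:40160819-40161068, plus strand: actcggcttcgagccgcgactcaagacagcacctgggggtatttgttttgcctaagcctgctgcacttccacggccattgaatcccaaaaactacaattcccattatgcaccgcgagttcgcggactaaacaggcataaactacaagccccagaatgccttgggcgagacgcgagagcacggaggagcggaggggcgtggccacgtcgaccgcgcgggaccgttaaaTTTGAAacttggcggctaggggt
HMMR promoter, chr5:163460382-163460631, plus strand: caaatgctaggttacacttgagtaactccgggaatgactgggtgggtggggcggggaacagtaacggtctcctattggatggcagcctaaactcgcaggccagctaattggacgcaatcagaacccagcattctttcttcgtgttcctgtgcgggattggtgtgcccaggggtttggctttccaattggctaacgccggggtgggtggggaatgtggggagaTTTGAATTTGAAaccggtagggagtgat
The match began 23 bases before the start in BUB1B, at 28 and 22 bases in HMMR and at 178 and 65 bases in CDC20. Both strands were searched, and none of these matches overlapped another of the 10 motifs searched. TTTGAA was found in 13.6% of all 27305 RefSeq promoter windows of this length, so a match is a description and not a site. HMMR, a spindle and hyaluronan-binding protein, had 188, 335 and 220 normalised counts in siControl and 85.1, 239 and 143 in siNELFA, lower in each pair (-0.71, standard error 0.187, adjusted p = 0.0471 in edgeR). A promoter was matched for 10497 of the 13266 tested protein-coding genes, under 80%, so shares of motifs among called genes are not given.

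DNA replication genes showed the same direction. Among 57 genes of this list, 13 (22.8%) were called lower and none higher, and 51 had a log2 fold change below 0. GINS2, a subunit of the CMG replicative helicase, fell most, from 140, 465 and 382 normalised counts to 42.0, 266 and 154 (log2 fold change -1.20, standard error 0.195, adjusted p = 0.00473 in edgeR). MCM10, which activates the helicase, gave -0.78 and RFC5, a clamp loader subunit, -0.60. RRM1, the large subunit of ribonucleotide reductase, had 1850, 2871 and 2558 in siControl and 992, 2291 and 1814 in siNELFA (-0.56). The helicase subunits MCM4 and MCM3 fell by less (-0.42 and -0.37). Leaving out replicate 1, 2 or 3 gave 33, 4 and 7 genes called lower.

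Genes of homologous recombination and the Fanconi anemia pathway, which repair breaks and crosslinks, held 7 lower calls among 36 (19.4%) and none higher. FANCD2, the protein whose ubiquitination marks a crosslink, had 1243, 1381 and 1170 normalised counts in siControl and 478, 909 and 582 in siNELFA, with no overlap (log2 fold change -0.98, standard error 0.144, adjusted p = 0.00275 in edgeR). BRCA2 and BRIP1 both gave -0.77, FANCI -0.65 and BRCA1 -0.62. Medians of the list were -0.62 in pair 1 and -0.26 in pairs 2 and 3, and 15, 5 and 7 genes were called lower without replicate 1, 2 or 3.

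Replication-dependent histone genes, whose transcripts end in a stem-loop in place of a poly(A) tail and are made in S phase, had the lowest list median. Of 71 genes 43 had enough counts, and 16 of these (37.2%) were called lower and none higher. HIST1H4C had 570, 1575 and 1424 normalised counts in siControl and 271, 849 and 699 in siNELFA. Levels were lowest in replicate 1 of both groups, and each pair fell by a similar factor (log2 fold change -0.99, standard error 0.118, adjusted p = 0.000836 in edgeR). HIST2H2AC gave -0.82, and the abundant linker histone HIST1H1C went from 4454, 8239 and 7611 to 3488, 5300 and 4657 (-0.56, standard error 0.095, adjusted p = 0.00621). Histone genes took 0.138%, 0.377% and 0.357% of all counts in siControl and 0.112%, 0.285% and 0.213% in siNELFA. Their list median was -0.17, -0.33 and -0.69 in the 3 pairs, and the number called lower was 29, 8 and 3 without replicate 1, 2 or 3, fewest without pair 3. Near-identical copies in this family can exchange reads, and values of single genes are uncertain. The 13 genes of histone mRNA 3′ processing and cap binding held no call, with a median of -0.06.

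The list of NF-kB and chemokine genes had more higher calls than any other of the 50 lists, though not the highest share. Of 30 tested NF-kB subunits, chemokines and their targets, 12 (40.0%) were called higher and 1, IL11, lower. CXCL8, the neutrophil chemokine interleukin 8 (ENSG00000169429, plus strand of chromosome 4 from 73740519 to 73743716), had 3141, 1203 and 1664 normalised counts in siControl and 8468, 2776 and 5840 in siNELFA. It rose in each pair, although siNELFA replicate 2 lay below siControl replicate 1 (log2 fold change 1.49, standard error 0.117, adjusted p = 4.88e-05 in edgeR). IL6, which drives the acute-phase response, went from 4175, 1108 and 1493 to 6807, 2947 and 4386 (1.23, standard error 0.141, adjusted p = 0.000659), and CCL20, which attracts CCR6-bearing lymphocytes, from 51.9, 46.5 and 71.8 to 118, 109 and 266 (1.48, adjusted p = 0.00404). The colony-stimulating factors CSF2 (1.18) and CSF3 (1.07), the chemokine CXCL1 (1.07) and interleukin IL1A (0.76) rose too. The acute-phase gene SAA1 had 3832, 4836 and 3745 in siControl and 10412, 9495 and 7421 in siNELFA, without overlap (1.14, standard error 0.105, adjusted p = 0.000157). SAA2 gave 0.97 and the read-through gene SAA2-SAA4 1.03, but these share near-identical sequence, so the split among them is uncertain. The inhibitor NFKBIA, itself a target of the pathway (0.39), and the subunit NFKB2 (0.46) rose less. Without replicate 1, 2 or 3, the list had 18, 12 and 10 genes called higher.

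CXCL8, IL6 and CCL20 rose, and the 250 bases before their RefSeq starts (GRCh38.p14) are shown because each window holds an NF-kB motif. Capitals mark this motif, searched as GGNNTTTCC on both strands and found once in each of the 3 windows. Matches to other motifs searched are not marked.
CXCL8 promoter, chr4:73740319-73740568, plus strand: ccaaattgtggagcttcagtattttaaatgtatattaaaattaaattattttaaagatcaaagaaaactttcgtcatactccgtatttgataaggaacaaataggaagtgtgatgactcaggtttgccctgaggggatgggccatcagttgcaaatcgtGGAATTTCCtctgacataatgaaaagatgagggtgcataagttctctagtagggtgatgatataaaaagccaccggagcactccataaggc
IL6 promoter, chr7:22726950-22727199, plus strand: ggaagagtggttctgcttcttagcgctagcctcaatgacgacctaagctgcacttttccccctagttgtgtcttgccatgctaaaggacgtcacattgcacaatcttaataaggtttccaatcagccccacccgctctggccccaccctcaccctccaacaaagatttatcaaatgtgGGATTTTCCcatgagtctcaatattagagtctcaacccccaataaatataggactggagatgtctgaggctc
CCL20 promoter, chr2:227813592-227813841, plus strand: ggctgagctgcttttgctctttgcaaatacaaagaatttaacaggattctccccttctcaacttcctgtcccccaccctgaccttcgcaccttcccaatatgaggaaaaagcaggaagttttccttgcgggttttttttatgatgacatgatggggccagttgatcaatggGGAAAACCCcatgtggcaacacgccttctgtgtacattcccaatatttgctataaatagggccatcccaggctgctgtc
The motif began 91, 72 and 79 bases before the start of CXCL8, IL6 and CCL20, overlapped no other motif searched, and was present in 5.48% of all 27305 windows. As for the mitotic genes, these promoters were picked for their match, and binding was not measured.

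YAP and TEAD targets were mixed. Of 24 genes, 5 were called higher (20.8%) and 1 lower. CTGF (ENSG00000118523, minus strand of chromosome 6 from 131948176 to 131951372), a matricellular protein, had 1614, 2014 and 1864 normalised counts in siControl and 3958, 4196 and 5254 in siNELFA, without overlap (log2 fold change 1.29, standard error 0.106, adjusted p = 7.14e-05 in edgeR). The related CYR61 went from 12451, 10936 and 11758 to 30944, 15985 and 19696 (0.87, standard error 0.123, adjusted p = 0.00238). NUAK2, an AMPK-related kinase (0.98), F3, tissue factor (0.68), and TGFB2 (0.54) rose, and IGFBP3, which binds insulin-like growth factors, fell (-0.90). The list median was 0.12, and 15 of the 24 genes were above 0. Without replicate 1, 9 were called higher and 3 lower with a median of 0.05, and without replicate 2 the median was 0.20. With YAP1 lowered the median was -0.05. TEAD proteins bring YAP to DNA, and the CTGF promoter is shown because 3 matches to the TEAD letters GGAATG (capitals) lie within 250 bases of the RefSeq start.
CTGF promoter, chr6:131951373-131951622, minus strand: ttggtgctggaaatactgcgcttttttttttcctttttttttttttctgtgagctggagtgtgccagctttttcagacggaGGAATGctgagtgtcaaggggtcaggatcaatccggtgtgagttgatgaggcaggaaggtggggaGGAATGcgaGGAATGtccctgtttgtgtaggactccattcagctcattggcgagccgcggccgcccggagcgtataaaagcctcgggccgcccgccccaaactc
The matches began 169, 104 and 95 bases before the start, and the same letters occurred on either strand in 11.9% of all windows.

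Cell surface, matrix and cytoskeletal genes rose in several lists. SDC4, a heparan sulfate proteoglycan at focal adhesions, had 6709, 7243 and 8564 normalised counts in siControl and 13919, 13794 and 19827 in siNELFA, so that every siNELFA library lay above every siControl library (log2 fold change 1.07, standard error 0.091, adjusted p = 8.33e-05 in edgeR). With SDC2 (0.76), GPC1 (0.72) and SDC3 (0.46), 4 of 7 tested syndecans and glypicans were called higher. Of 18 proteases of the matrix and their inhibitors 7 (38.9%) were higher and none lower. PLAUR, the urokinase receptor, went from 1282, 1590 and 2155 to 2322, 2731 and 3630, without overlap (0.80, adjusted p = 0.000836). The urokinase PLAU (0.68), the metalloprotease inhibitor TIMP1 (0.55) and the membrane protease MMP14 (0.45) rose as well.

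Among 38 matrix genes, 11 (28.9%) were higher and 3 lower. COL8A1 (0.94), THBS1 (0.78), AGRN (0.78), COL4A1 (0.77) and COL5A1 (0.74) rose. SPARC, a collagen-binding glycoprotein at low level here, gave the largest value (0.99), but it was not called without replicate 2 or 3. FN1, fibronectin, fell from 24252, 7518 and 9554 to 16520, 6014 and 6665 (-0.46, standard error 0.088, adjusted p = 0.0115 in edgeR), as did LAMA3 (-0.52) and COL6A3 (-0.60). The integrin chains ITGB2 (1.21), ITGB3 (0.65), ITGA5 (0.56) and ITGB4 (0.53) rose and ITGA2 fell (-0.52), out of 15 tested. Of 29 actin and SRF target genes, 6 were called higher and none lower, among them FLNA, filamin A, with 24661, 34521 and 35820 in siControl and 52884, 49048 and 53197 in siNELFA (0.73, standard error 0.109, adjusted p = 0.00300). CNN2, calponin 2, gave 0.72. The medians of the actin and matrix lists were 0.46 and 0.51 in pair 1 and between 0.11 and 0.23 in pairs 2 and 3. Without replicate 1, the actin list had 12 higher calls and 1 lower and the matrix list 16 and 5. Without replicate 3 the matrix list had 10 higher calls and no lower one, so that the falls of FN1, LAMA3 and COL6A3 were not called there. ITGA5 was not called without replicate 2.

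Genes of the secretory and lysosomal system also leaned upward. Of 25 genes of endoplasmic reticulum folding and the unfolded protein response, 6 were called higher and none lower. The chaperone HSPA5 had 21159, 15695 and 16961 normalised counts in siControl and 31541, 24782 and 25393 in siNELFA, with no overlap (log2 fold change 0.61, standard error 0.083, adjusted p = 0.00183 in edgeR). The co-chaperone DNAJB11 gave 0.59. Of 48 genes of transport between endoplasmic reticulum and Golgi 6 were higher, led by the cargo receptors TMED9 (0.60) and TMED3 (0.59). Lysosome and V-ATPase genes held 9 higher calls and 1 lower among 58, with ATP6V0B (0.78) and ATP6AP1 (0.64) above and ATP6V1C1 (-0.61) below. Antigen presentation held 7 higher calls of 15, including HLA-E (0.65), the peptide-loading factor TAPBP (0.55) and the immunoproteasome subunit PSMB9 (0.68). PSMB10, another immunoproteasome subunit, gave 1.08 and led the 4 proteasome genes called higher of 37. The number called higher in the antigen presentation list was 10, 2 and 4 without replicate 1, 2 or 3, that of the lysosome list 23, 4 and 7, and that of the folding list 15, 3 and 3.

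The ferritin chains were among the most abundant transcripts that rose. FTL, the light chain, had 40357, 40964 and 39594 normalised counts in siControl and 68738, 71425 and 70524 in siNELFA, with tight groups far apart (log2 fold change 0.81, standard error 0.080, adjusted p = 0.000244 in edgeR). FTH1, the heavy chain, gave 0.73 (adjusted p = 0.000659). The cystine transporter SLC7A11, an NRF2 target, fell (-0.73). Of 27 genes in this list, 4 were higher and 1 lower. In the cholesterol list 3 of 25 genes were called higher and none lower, among them DHCR7, an enzyme at the end of cholesterol synthesis (0.56), and INSIG1, which restrains the pathway (0.54). SREBF1, a transcription factor of lipid synthesis, gave 0.68.

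CDKN1A, the CDK inhibitor p21, had 789, 1200 and 1914 normalised counts in siControl and 2514, 2537 and 3676 in siNELFA. The siNELFA libraries all lay above the siControl libraries (log2 fold change 1.23, standard error 0.131, adjusted p = 0.000385 in edgeR). Of 26 genes in the list of CDK inhibitors and p53-type targets 5 were called higher and 2 lower. TP53I3 gave 0.95 and GADD45B 0.59, while MDM2, the ubiquitin ligase that degrades p53 (-0.47), and DDB2, a damage recognition factor (-0.63), fell. Neither fall was called without replicate 2 or without replicate 3, and the list then had 2 and 4 higher calls. GDF15 had 535, 76.4 and 56.2 in siControl and 2062, 129 and 57.2 in siNELFA. Its call (1.09, adjusted p = 0.0388) rested on replicate 1, without which it had a log2 fold change of 0.43 and an adjusted p of 0.256. Immediate early genes held 3 higher calls of 21, with JUNB at 0.87, IER3 at 0.66 and KLF4 at 0.56, the last not called without replicate 2 or 3. In the list of EGF receptor ligands and ERK feedback, the ligand HBEGF (0.72) and the phosphatase DUSP5 (0.61) rose, whereas the ERK phosphatase DUSP6 fell from 1837, 1990 and 1974 to 1016, 1266 and 1081 (-0.78, standard error 0.105, adjusted p = 0.00181).

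Glycolysis and hypoxia genes moved in both directions, with 3 called higher and 5 lower of 34. PDK1 (-0.67), BNIP3 (-0.56), PFKFB4 (-0.53), HIF1A (-0.46) and ENO1 (-0.36) fell, and the glucose transporters SLC2A3 (0.84) and SLC2A1 (0.42) and the prolyl hydroxylase subunit P4HA2 (0.70) rose. In the amino acid stress list 3 of 27 genes were called higher and 1 lower. The transporter genes SLC7A5 (0.70), SLC1A5 (0.65) and SLC3A2 (0.63) rose, and the transporter gene SLC7A11 fell (-0.73). Of 33 chaperones HSP90AA1 fell (-0.54) and HSPA1B rose (0.72), though HSPA1B has a near-identical copy and is uncertain. Of 32 interferon-stimulated genes 3 were higher, and the list median was -0.21 in pair 1 and 0.33 and 0.28 in pairs 2 and 3. Without replicate 1, 14 of them were called higher and 1 lower, and without replicate 2 none.

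The machinery around pausing itself changed little at the RNA level. None of 9 genes of 7SK and P-TEFb and none of 14 Integrator subunits was called, with medians of 0.06 and 0.05. The kinase CDK9 had 336, 896 and 956 normalised counts in siControl and 729, 1027 and 1027 in siNELFA, which was not called (log2 fold change 0.45, adjusted p = 0.155 in edgeR). Without replicate 3 CDK9 was called higher (0.64, adjusted p = 0.0426 in edgeR), and without replicate 1 it gave 0.16. Of 22 genes of DSIF, PAF1 and the super elongation complex 3 were lower, namely MLLT1, the ENL subunit (-0.80), the histone chaperone SUPT16H (-0.41) and TCEA1, which restarts backtracked polymerase (-0.43). None of these 3 was called without replicate 3, and only MLLT1 without replicate 2, while without replicate 1 the list had 4 lower and 4 higher calls. Of 12 RNA polymerase II subunits POLR2L was higher (0.72). Genes of basic cell functions mostly stayed under the threshold in the fit of all 3 pairs. There was 1 call among 81 cytosolic ribosomal proteins, 1 among 78 mitochondrial ribosomal proteins, 2 among 55 splicing genes, 5 among 424 zinc finger genes and none among 48 chromatin regulators, all of them lower. Without replicate 1 the chromatin list had 10 lower and 2 higher calls and the zinc finger list 33 and 8. Without replicate 2 or 3 the chromatin list had no call and the zinc finger list 2 lower ones.

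The other lists held few calls in the fit of all 3 pairs. Of 18 EMT genes 3 rose, CLDN1 (0.88), CLDN4 (0.86) and JUP (0.67), which are junction genes of epithelial cells. TGF-beta genes gave 2 higher calls of 21, with the target TGFBI at 0.48 (not called without replicate 2). Without replicate 1 the TGF-beta list had 9 higher calls and 1 lower, and the EMT list 7 higher. In that fit 1444 of 18077 genes were called higher. Without replicate 2 or 3 the EMT list had 3 higher calls, and the TGF-beta list 1 and 2. Among 11 IGF-binding proteins and receptors IGFBP6 (0.67) and IGFBP4 (0.65) rose and IGFBP3 fell (-0.90), with a list median of -0.09. Of 32 autophagy genes ATG9A (0.58), MAP1LC3B (0.50) and SQSTM1 (0.46) rose, but 1 of the 32 was called without replicate 2. Nuclear pore genes fell in 2 of 27 cases, NDC1 (-0.58) and NUP205 (-0.41), the second not without replicate 2 or 3. Among 15 aldehyde dehydrogenases ALDH4A1, of proline breakdown, rose (0.78) beside the fall of ALDH9A1, though not without replicate 2 or 3. Of 81 nuclear genes of the respiratory chain COX7A2 rose (0.41, not called without replicate 2 or 3) and COX6C fell (-0.80). Ribosome biogenesis held 1 lower call of 43, RRP1B (-0.70), and the aminoacyl-tRNA synthetases 1 of 20, FARSB (-0.59). None of 27 apoptosis regulators, 42 translation factors, 6 metallothioneins or 13 mitochondrially encoded genes was called. BBC3, a BH3-only protein, had 130, 44.02 and 67.9 normalised counts in siControl and 252, 100.1 and 76.9 in siNELFA, which missed the threshold (0.78, adjusted p = 0.0804 in edgeR).

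Several small RNA genes and gene models over them rose. SNORD3B-2 (ENSG00000262074, minus strand of chromosome 17 from 19063346 to 19064136), a copy of the U3 small nucleolar RNA that guides ribosomal RNA cleavage, had 16.2, 127 and 173 normalised counts in siControl and 148, 1024 and 1197 in siNELFA. It had the largest rise of any gene averaging at least 50 normalised counts (log2 fold change 2.94, standard error 0.163, adjusted p = 1.48e-06 in edgeR). The deposited TPM values, however, were 1031, 1439 and 1537 in siControl and 1062, 1386 and 1379 in siNELFA, with overlapping groups. The rise is therefore seen in the counts alone, and reads shared among near-identical U3 copies make it uncertain. Of 34 genes for spliceosomal small nuclear RNA, U3, 7SK, RNase MRP and overlapping models that averaged at least 20 normalised counts, 8 were called higher and none lower. Over all tested genes 2.76% were called higher. The models RP11-160E2.6, CH17-373J23.1 and CTD-3014M21.1 were put into this set by name and each was called higher, so the count of 8 does not come from a set chosen without regard to the values. These 8 are not independent, since SNORD3D stands under 2 identifiers with equal counts in siControl and lies within RP11-160E2.6, so they can share reads. Among them were RNVU1-14, a U1 variant (1.65), CH17-373J23.1, which starts at the same base and extends past it (1.86), and CTD-3014M21.1 on chromosome 17 (1.79), none of which was called without replicate 2 (adjusted p = 0.149, 0.0598 and 0.0504 in edgeR). RN7SK, the 7SK RNA itself, was not called, at 160287 to 171047 in siControl and 170133 to 199613 in siNELFA (0.13, adjusted p = 0.399 in edgeR). Among the falls, the Y_RNA gene ENSG00000206990 (-4.18) sits within the final exon of ALDH9A1 in the same orientation, and its reads cannot be told apart from those of ALDH9A1. LINC00704 (-1.42), TRAM2-AS1 (-1.37) and RP11-546D6.3 (-1.45) were the other non-coding genes with the largest falls.

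Called genes differed in length. Genes were also split by span into 5 bins of equal size. Protein-coding genes called higher spanned a median of 20403 bp from start to end, those called lower 55151 bp and those not called 34063 bp (GENCODE annotation). In the bin of shortest genes, 5.16% were called higher and 1.40% lower, and in that of the longest 1.94% and 4.33%. In pair 1 the median log2 difference ran from 0.29 in the shortest to -0.15 in the longest bin, against 0.03 to -0.01 in pair 2 and 0.03 to -0.05 in pair 3. Without replicate 1, 11.4% were higher and 6.47% lower in the shortest bin, and 8.19% and 11.2% in the longest. Called genes also differed in counts, with median mean normalised counts of 1328 (higher), 835 (lower) and 436 (not called). Within the fifth of genes with the highest counts, 17.8% of the shortest were higher and 3.04% lower, against 3.23% and 4.55% of the longest. Within the fifth with the lowest counts the shares were 0.759% and 0%, against 0.380% and 1.52%.

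**Figure D5:**
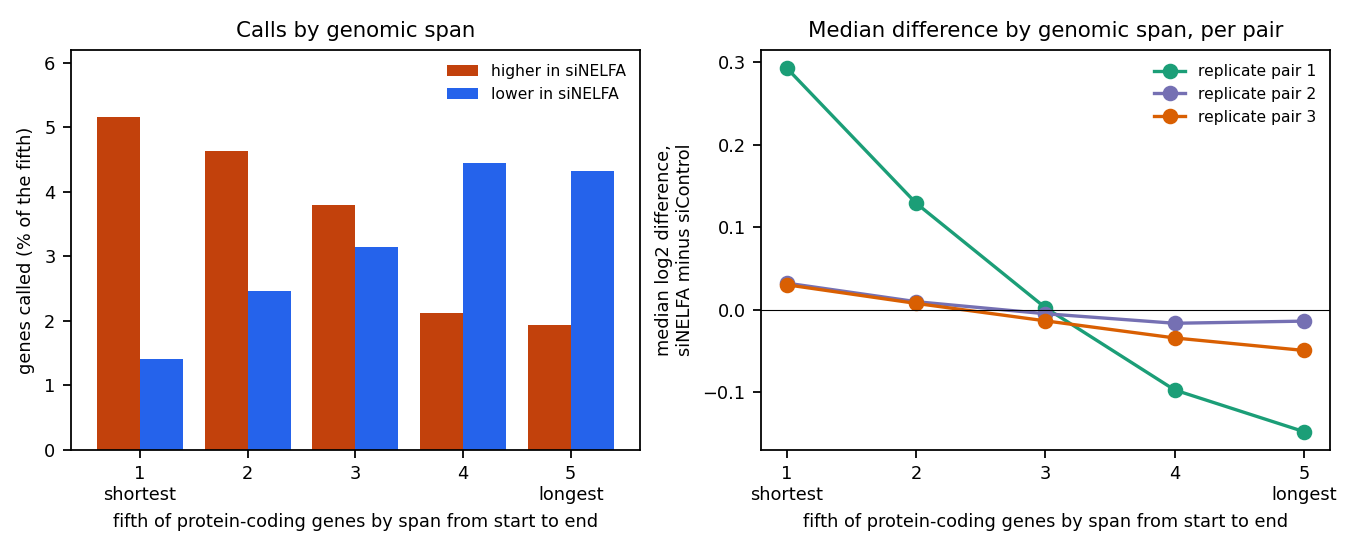
Share of protein-coding genes called higher and lower in siNELFA (left, % of each bin) and median log2 difference in each replicate pair (right), in 5 bins of genomic span from shortest to longest. Higher calls go from 5.16% to 1.94% and lower calls from 1.40% to 4.33%, and the line of pair 1 is the steepest, from 0.29 to -0.15.

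The effect of the siNELFA pool was set beside its effect in cells with YAP1 lowered, measured in the 3 siNELFA+siYAP and 3 siYAP libraries, none of which enter the comparison above. The library names of siNELFA+siYAP carry the number 1 and an index, so these libraries were not paired, and whether they are as independent as the others is not given in the labels. There, edgeR without a block called 6 of 17167 genes (0.035%), 1 higher (0.00583%) and 5 lower (0.0291%), and 2663 were at an unadjusted p under 0.05. DESeq2 called 749. All 6 were among the 924 genes called with YAP1 intact, with the same direction. ALDH9A1 (log2 fold change -3.11), EI24 (-1.56), NIN (-1.09), HSDL2 (-1.12) and the Y_RNA gene within ALDH9A1 were lower. NELFA itself had a log2 fold change of -1.94 there and missed the threshold (adjusted p = 0.0583). HSDL2, a peroxisomal enzyme, was named after its values were seen. Of the 490 higher genes 488 were tested there and 410 (84.0%) had the same sign, with a median log2 fold change of 0.36. Among the genes not called but above 0 with YAP1 intact the share was 60.2%. Of the 434 lower genes 433 were tested and 425 (98.2%) had the same sign, with a median of -0.56, against 67.5% of genes not called but below 0. These shares rested on replicates 2 and 3 of siYAP, against each of which 96.9% to 99.3% had the same sign, whereas against siYAP replicate 1 alone it was 60.7% of the higher and 63.7% of the lower genes. For genes not called, the share was 65.7% to 69.1% against siYAP replicates 2 and 3. Against siYAP replicate 1 it was 56.6% of those above 0 and 51.5% of those below 0 with YAP1 intact. In that background the list medians were -0.33 for mitosis, -0.46 for histones, 0.41 for NF-kB and chemokines, 0.46 for matrix proteases, 0.06 for antigen presentation and 0.00 for lysosome genes, beside -0.03 for all genes.

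A difference between the effects of siNELFA with YAP1 intact and with YAP1 lowered was tested in one edgeR fit over all 12 libraries without a block. None of 18525 genes passed the adjusted threshold, 326 were at an unadjusted p under 0.05, and DESeq2 likewise called none (431 unadjusted). Without a block edgeR called only 1 gene in siNELFA against siControl, so the lack of calls here does not show that the effects were equal. VASN, with a log2 fold change of 1.62 with YAP1 intact, had -0.11 with YAP1 lowered, and CXCL8 had 1.82, IL6 1.00, CTGF 1.19, SDC4 1.24, CDKN1A 0.97, FTL 0.36 and CDC20 -0.96 there. Compared with siYAP directly, siNELFA had 1195 of 18193 genes called (6.57%) with the block, 626 higher (3.44%) and 569 lower (3.13%), and 5 without it. This comparison uses the same siNELFA libraries.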

How the data were processed

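MDA-MB-231 cells were profiled by rRNA-depleted, stranded RNA-seq in 4 siRNA groups of 3 libraries, described in the methods of the study as independent biological replicates. In fits with the block, p-values measure the spread of the differences within replicate numbers. In fits without it they measure the spread between the libraries of a group. Reads were aligned by the authors to GRCh38 (Ensembl 87) with STAR, and the deposited counts are unnormalised whole numbers per gene from featureCounts. Its options and version are not given in the sources used here. The deposited TPM values were computed by the authors with another tool (Cufflinks is among the tools listed), are not a rescaling of the counts, and served as an alternative. The FPKM table was not used, since it rescales to the TPM values.

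Groups and replicate numbers came from the sample labels. Counts were tested with edgeR 4.0.16 in R 4.3.3 (quasi-likelihood test, TMM factors, filterByExpr with a minimum count of 10, Benjamini-Hochberg adjustment over all tested genes), with the replicate number as a block for siNELFA against siControl. Across 13006 genes, deviations from group means correlated between same-numbered libraries by 0.815, 0.666 and 0.768 in the 3 pairs. Between libraries of different number the values were 0.495 (siControl 2 with siNELFA 3) and 0.462 (siControl 3 with siNELFA 2). They were -0.758 to -0.621 where replicate 1 met another number. Same-numbered libraries were thus closest, though replicates 2 and 3 also resembled each other across numbers. The authors' own analysis used DESeq2. Pair differences used a pseudocount of 0.5 normalised counts. Alternatives were no block, DESeq2 1.42.0, RLE and upper-quartile factors, other filters, the siYAP libraries in the fit, limma 3.58.1 on log2(TPM + 1), and leaving out each pair. The fit was tested on simulated data.

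Genes named are the NELF subunits and YAP1, the 15 largest rises and falls among called protein-coding genes averaging at least 50 normalised counts with one direction in all 3 pairs, the 8 with the smallest p in each direction above 2000 normalised counts, up to 4 called members per list (2 by size where none was called), and 4 non-coding genes per direction. Further called list members and small RNA genes were named after their values were seen. Members and lists were chosen with earlier results of these data known. Coordinates are from GENCODE v44 on GRCh38 by gene identifier, promoters from RefSeq on GRCh38.p14. A gene with few counts is limited by depth, and errors given do not cover steps before counting. A few genes that this rule selects are not reported here.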

Additional observations from a re-analysis of the deposited data

How the results depend on the processing

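The call of NELFA and nearly all gene calls depend on the replicate block. Without it siNELFA against siControl had 1 gene called (0 higher, 1 lower) and NELFA gave -1.63 with adjusted p = 0.381 in edgeR, and siNELFA against siYAP had 5. With a replicate block siNELFA+siYAP against siYAP had 1. In limma on log2(TPM + 1), no gene was called (0 higher, 0 lower, 3196 at an unadjusted p under 0.05) and NELFA gave -1.37 (adjusted p = 0.224). There the median of all genes was -0.17, 22 of 50 list medians changed sign, and 2 still did so relative to it. NELFE (-0.23), NELFB (-0.048) and SNORD3B-2 (-0.056) turned direction, and the Y_RNA gene, listed at or near 0 TPM, gave 0. Keeping all genes with at least 1 count gave 1733 calls (1007 higher, 726 lower), and 222 in siNELFA+siYAP against siYAP, where DESeq2 gave 749. Leaving out 1 pair gave 629 to 2835 calls (329 to 1444 higher, 223 to 1391 lower), 139 to 2779 in siNELFA against siYAP and 0 to 1349 in siNELFA+siYAP against siYAP, and NELFA between -1.77 and -1.47. Fits with a pair left out estimate their error from fewer libraries, and their counts are not like for like with the 924. Across these fits NELFB ran from -0.13 (without replicate 1) to 0.36 and NELFE from -0.12 (without replicate 2) to 0.14. Of 163 named genes called, 110 were called in all 3 of these fits and 27 in 2. DESeq2 (1123), RLE (966) and upper-quartile factors (982), a mean of at least 50 counts (952) and the siYAP libraries in the fit (1142) stayed within 1.5 times of the 924 calls. The cause of these differences was not tested.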
